A study of Rattus norvegicus with 20 samples.

Results

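Macroautophagy encloses cytoplasm in a double membrane, the autophagosome, and delivers it to the lysosome, whose acid hydrolases break it down. The genes described here are 36 autophagy and lysosome genes, taken from a list by symbol: autophagosome genes, cargo receptors, the transcription factors TFEB and TFE3, lysosomal proteases, membrane proteins, proton pump subunits and lipid exporters. Of the 36, 33 were represented by a probe set that the platform annotation gives to 1 gene symbol, out of 18166 genes so represented. The other 3, Map1lc3b, Gabarapl2 and Nbr1, share a probe set with a second symbol and were left out. The rule that picks the probe sets uses symbols and brightness and no difference between groups. The list of genes itself was chosen with earlier results of these data known.

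The arrays were Affymetrix Rat Gene 2.0 arrays, 20 in all, of total RNA from INS-1 cells. These derive from a rat insulinoma, still secrete insulin, and as a tumour line stand in for beta cells only in part. The cells had been kept as 5 separate clones over 10 passages, and RNA was taken 10 h after the challenge began. Each of 4 title words has 5 arrays. DMSO arrays hold wells with the solvent of IAPP (1%), and IAPP arrays hold wells given monomeric islet amyloid polypeptide, a beta-cell hormone that forms amyloid (77 uM in the series description, 300 ug/ml in the sample fields). The titles C4BPD and C4BP are not spelled out. They likely stand for C4b-binding protein without IAPP and for C4b-binding protein together with IAPP. C4b-binding protein, a plasma inhibitor of complement, is given as 0.6 uM in the series description and 300 ug/ml in the sample fields. A separate treatment field gives the same condition as the title for only 3 of 20 arrays, so every group below rests on the title. The labels do not say that a replicate number is a clone, and p-values measure the spread between these arrays.

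In a beta cell, autophagy removes damaged mitochondria, surplus secretory granules and protein aggregates, and IAPP is among its known substrates. The ULK1 kinase and the Beclin 1 lipid kinase complex start a phagophore, WIPI proteins read the lipid made there, and a ubiquitin-like conjugation system attaches ATG8 proteins (the LC3 and GABARAP families) to the membrane. Receptors such as SQSTM1 tie cargo to ATG8, and the lysosome then degrades proteins with cathepsins and exports cholesterol through NPC2 and NPC1. The transcription factors TFEB and TFE3 drive many of these genes.

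Array medians ran from 170.72 to 183.44 intensity units, and log2 values of any pair of arrays correlated at 0.985 to 0.996 across probe sets. All 33 member genes had a mean log2 intensity, 8.69 to 13.17, above the median of all probe sets, 7.477. All 11 measured beta-cell markers lay above that median too, as did Gcg and Sst among 4 markers of other islet cells. Above it were also 2 of 8 acinar and duct markers, 2 of 6 fibroblast markers and 0 of 6 macrophage and blood markers. Among all genes, Gcg stood at percentile 99.8, above Ins1 at 98.3 and Ins2 at 96.7. Krt7 stood at 68.4, while Sst at 42.9, Cela1 at 42.2, Col1a1 at 43.2 and Col3a1 at 42.2 lay below the median gene. The summed intensity of the beta-cell markers was 63760 to 67270 in DMSO, 60760 to 63870 in IAPP, 63850 to 67620 in C4BPD and 60010 to 64120 in C4BP. The IAPP and C4BP ranges reached lower than the DMSO range and overlapped it. Of the 11 markers, limma called 3 (27.3%) lower in IAPP vs DMSO (Isl1, Mafa and Slc2a2), beside 1.97% of all genes called lower. In C4BP vs DMSO it called 4 (36.4%) lower (Nkx2-2, Mafa, Slc2a2 and Slc30a8), beside 3.23%. In C4BP vs C4BPD it called 1 (9.09%) lower (Slc2a2), beside 1.62%. The summed markers of other islet cells were 9582 to 10040 in IAPP, below the 10380 to 11080 of DMSO without overlap, against 10350 to 10760 in C4BPD and 10230 to 10820 in C4BP, and Gcg was called lower in IAPP vs DMSO. The part of these markers in the results below was not tested. In bulk RNA, a change in the share of cells and a change in RNA per cell cannot be told apart.

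The autophagosome genes and the lysosomal genes responded in small steps, and few of them passed the test. A gene is called here when limma's moderated test gives an adjusted p under 0.05, with Benjamini-Hochberg adjustment over all 18166 genes. In IAPP vs DMSO, 4 of 33 members were higher (12.1%) and 0 lower, beside 3.38% of all genes called (1.41% higher, 1.97% lower). These 4 were the lipid exporters Npc1 and Npc2, the protease Ctsl and the ATG8 gene Gabarapl1. In C4BPD vs DMSO, 1 of 33 (3.03%) was higher, Wipi1, and 0 lower, beside 1.93% of all genes (1.17% higher, 0.765% lower). In C4BP vs DMSO, 6 of 33 (18.2%) were higher, Npc1, Npc2, Ctsl, Mcoln1, Sqstm1 and Atg7, and 0 lower, beside 5.96% of all genes (2.72% higher, 3.23% lower). This count fell to 2 with arrays centred on their median or without DMSO array 2, and to 3 without DMSO 5 or without C4BP 4. In C4BP vs C4BPD, Npc1 and Npc2 were higher and Wipi1 lower, 9.09% of the members beside 2.37% of all genes (0.754% higher, 1.62% lower). In C4BP vs IAPP, 0 of 33 were called by limma, and 1 (Mcoln1) had an unadjusted p under 0.05, beside 0.606% of all genes called. The groups did not overlap for 7 members in IAPP vs DMSO, 2 in C4BPD vs DMSO, 7 in C4BP vs DMSO, 0 in C4BP vs IAPP and 5 in C4BP vs C4BPD, beside 4.83%, 3.82%, 6.13%, 2.38% and 3.73% of all genes. The comparisons with DMSO share the same 5 DMSO arrays. The 18166 genes include dim ones, while all 33 members lay above the median of all probe sets. With dim genes left out, limma called 733 genes and 4 members in IAPP vs DMSO, and 1288 genes and 8 members in C4BP vs DMSO. The share over genes of like brightness is not given here. Over all 4 groups, 6 of 33 (18.2%) passed limma's moderated F test, beside 7.85% of all genes. The median difference over the 33 members was 0.03 on the log2 scale in both IAPP vs DMSO and C4BP vs DMSO and 0.02 in C4BPD vs DMSO, beside 0.00, 0.01 and -0.01 over all genes.

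**Figure D1:**
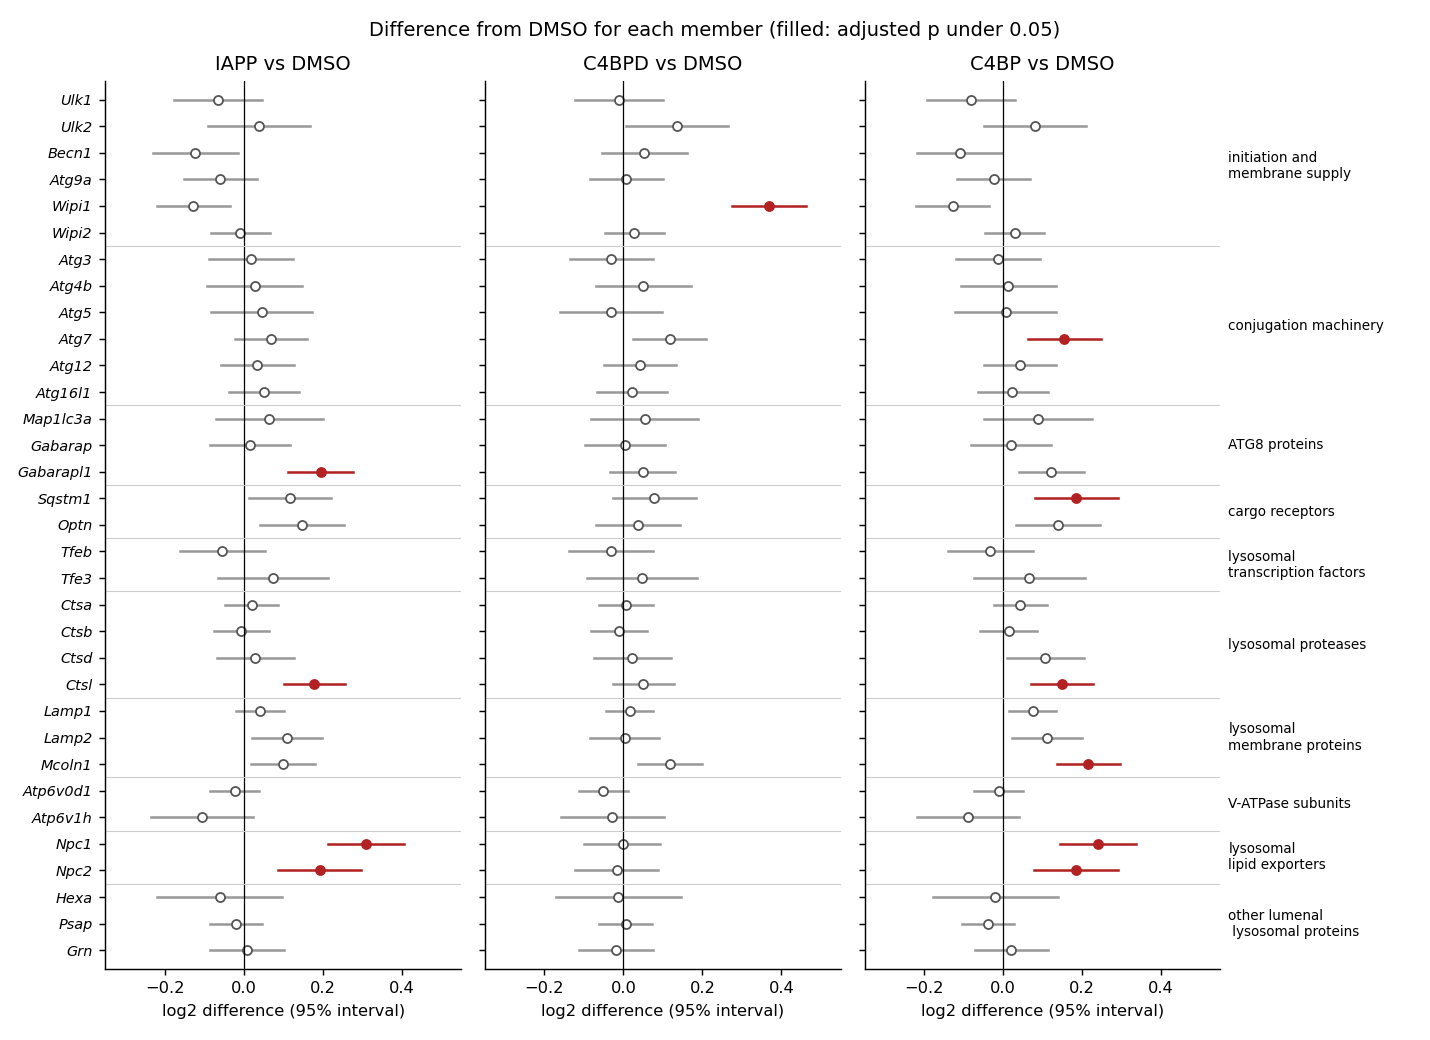
Difference from DMSO on the log2 scale (x axis) of each of the 33 members (y axis, ordered by role) in arrays titled IAPP, C4BPD and C4BP. Circles are limma estimates from 5 arrays per group, lines are 95% intervals, and filled red symbols have an adjusted p under 0.05. The filled symbols are 4 genes in IAPP, Wipi1 alone in C4BPD, and 6 genes in C4BP, all to the right of 0.

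Wipi1, a WIPI protein that binds the phagophore's phosphatidylinositol 3-phosphate, was the member with the largest difference in any comparison, and its rise was seen in C4BPD arrays and not in C4BP arrays. Intensities of Wipi1 (probe set 17652313) in arrays 1 to 5 were 1396, 1431, 1464, 1434 and 1447 in DMSO, and 1744, 1908, 1890.5, 1837 and 1882 in C4BPD. In IAPP they were 1269, 1257, 1354, 1257 and 1439, and in C4BP 1347, 1241, 1328, 1255 and 1402. Every C4BPD array lay above all 15 other arrays, while the IAPP and C4BP arrays overlapped each other. The mean was 1434 ± 24.8 in DMSO and 1852 ± 65.9 in C4BPD (SD, n = 5 each), a 1.29-fold rise (limma, adjusted p = 3.68e-05). Between C4BPD and C4BP, Wipi1 fell by 0.50 on the log2 scale to 1314 ± 67 (limma, adjusted p = 7.87e-07). Its IAPP mean was 1315 ± 80.1, and C4BP minus IAPP was 0.00 with a 95% interval of -0.09 to 0.09. Against DMSO, Wipi1 stood at -0.13 on the log2 scale in IAPP and in C4BP alike, which did not pass (limma, adjusted p = 0.16 and 0.109). Both differences passed when the replicate number was fitted as a block.

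The difference between these contrasts was itself tested. The interaction takes the change with IAPP in the presence of C4b-binding protein (C4BP against C4BPD) and subtracts the change without it (IAPP against DMSO). For Wipi1 it was -0.37, with a standard error of 0.06 (limma, adjusted p = 0.0229). Wipi1 was 1 of 33 members (3.03%) called for the interaction, beside 9 of 18166 genes (0.0495%), all 9 negative, and it ranked 7 by p among all genes. The limma call was lost with arrays centred on their median (adjusted p = 0.0776) and in 9 of 20 fits that each left out 1 array, which were DMSO 1 and 2, IAPP 3, C4BPD 2, 3, 4 and 5, and C4BP 3 and 4, at adjusted p of 0.0528 to 0.0658. It was also lost in all 5 fits that left out the arrays of 1 replicate number in every group (0.0885 to 0.294). The rise in C4BPD and the fall between C4BPD and C4BP held in all of these fits.

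The other starters of the phagophore did not pass in any pairwise comparison. Wipi2, which recruits the conjugation machinery, had means of 2179 to 2237 across the 4 groups, and Atg9a, the scramblase that supplies membrane vesicles, had means of 1484 to 1555. Ulk1 and Ulk2, the initiating kinases, ranged from 2428 to 2565 and from 1484 to 1626. Becn1, the Beclin 1 subunit of the lipid kinase complex, had a mean of 1304 ± 77.4 in C4BPD and 1164 ± 21.7 in C4BP (SD, n = 5 each). These 2 groups did not overlap, but the difference of -0.16 did not pass (limma, adjusted p = 0.121).

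**Figure D2:**
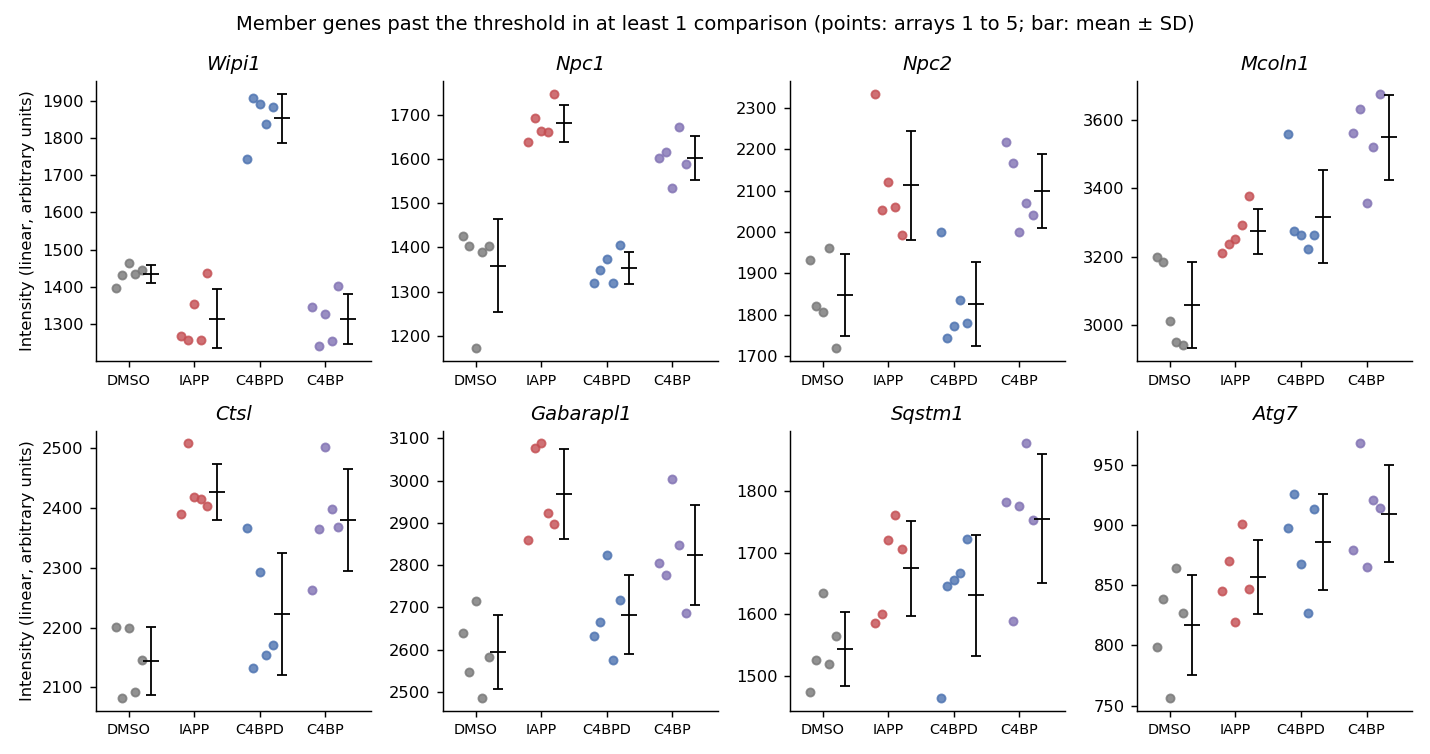
Intensity on a linear scale (y axes, which do not start at 0) of the 8 members called in at least 1 comparison, for arrays 1 to 5 of each title group (x axis). Points are arrays, and the bar beside them is the mean ± SD. Wipi1 is high in the 5 C4BPD arrays alone, and Npc1 is high in the 5 IAPP and the 5 C4BP arrays.

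The stretch of genome before each gene's start is shown for Wipi1, which carries the interaction, for Mcoln1 and Ctsl, which were both called in C4BP vs DMSO, and for Lamp1, a lysosomal gene that was not called. The 250 bases are from RefSeq's GRCr8 assembly, 5' to 3' on the gene's own strand. Capitals mark matches to CACGTG, the E-box core bound by TFEB and TFE3 among other factors, or to TGANNNNGC, searched on both strands. TGANNNNGC is a loose form of the antioxidant response element in which N is any base, so a match need not fit the element itself. The stretches lie at chr10:95079294-95079543 (minus strand) for Wipi1, chr12:6358008-6358257 (plus strand) for Mcoln1, chr17:769854-770103 (plus strand) for Ctsl and chr16:83075064-83075313 (minus strand) for Lamp1.
Wipi1: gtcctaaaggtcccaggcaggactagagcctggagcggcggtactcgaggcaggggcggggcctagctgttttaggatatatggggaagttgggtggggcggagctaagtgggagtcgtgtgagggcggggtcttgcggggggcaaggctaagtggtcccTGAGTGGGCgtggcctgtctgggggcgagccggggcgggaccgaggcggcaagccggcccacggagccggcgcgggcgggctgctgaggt
Mcoln1: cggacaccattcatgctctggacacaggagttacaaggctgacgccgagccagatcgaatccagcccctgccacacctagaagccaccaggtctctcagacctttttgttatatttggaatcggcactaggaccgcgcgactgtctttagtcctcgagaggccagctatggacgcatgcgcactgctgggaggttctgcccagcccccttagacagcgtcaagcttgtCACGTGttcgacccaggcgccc
Ctsl: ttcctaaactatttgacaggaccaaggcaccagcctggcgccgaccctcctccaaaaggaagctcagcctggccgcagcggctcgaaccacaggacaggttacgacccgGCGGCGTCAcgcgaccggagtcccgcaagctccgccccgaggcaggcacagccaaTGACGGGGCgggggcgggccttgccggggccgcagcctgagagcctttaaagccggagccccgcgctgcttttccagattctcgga
Lamp1: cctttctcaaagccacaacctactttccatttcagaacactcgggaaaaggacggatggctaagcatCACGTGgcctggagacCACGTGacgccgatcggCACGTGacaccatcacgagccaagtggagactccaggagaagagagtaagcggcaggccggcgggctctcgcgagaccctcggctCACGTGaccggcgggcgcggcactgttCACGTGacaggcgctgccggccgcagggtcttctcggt

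Promoter windows were matched for 29 of the 36 listed genes. Of these, 6 (20.7%) held CACGTG, beside 5.59% of all 33469 windows of the same length: Ctsd, Atg3, Mcoln1, Lamp1, Atp6v0d1 and Atg5. Lamp1 held 5 copies, while among the 8 called members Mcoln1 alone held 1. The longer CLEAR element, a palindrome of 10 bases that contains the E-box core, was searched as 1 exact string. That string was in 0 of the 29 and in 0.203% of all windows. No mismatch was allowed, so these counts leave out near matches to the element. In the Lamp1 window, some E-box cores have flanking bases that differ from the string at only 1 position. TGANNNNGC was in 13 of the 29 (44.8%) and in 34.7% of all windows, and the CEBP-ATF element TGATGNAAN was in 0 of the 29 and in 3.38% of all windows. Such matches describe letters in a window and are not binding sites.

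The conjugation machinery stayed within narrow bounds. Among Atg3, Atg4b, Atg5, Atg7, Atg12 and Atg16l1, differences from DMSO ran from -0.03 to 0.16 on the log2 scale over the groups, and 1 of the 6 was called. That gene, Atg7, the E1-like enzyme that activates ATG12 and the ATG8 proteins, read 799, 838, 756, 864 and 827 in DMSO arrays 1 to 5 and 879.5, 968, 865, 921 and 914 in C4BP. All C4BP arrays lay above all DMSO arrays, though the nearest pair, 864 and 865, nearly touched. The means were 817 ± 41.3 and 909 ± 40 (SD, n = 5 each), a 1.11-fold rise (limma, adjusted p = 0.041). This call was lost with centred arrays or quantile normalization, with array weights, and when only DMSO and C4BP arrays were fitted (adjusted p up to 0.13), and without DMSO 1, 2, 3 or 5 or C4BP 2, 4 or 5 (0.054 to 0.125). In C4BPD, Atg7 averaged 886 ± 39.7 and did not pass.

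Of the ATG8 proteins, which decorate the autophagosome membrane and bind cargo receptors, 3 of 5 were measured. Gabarapl1, a GABARAP family member, read 2640.4, 2547, 2715, 2486 and 2582 in DMSO arrays 1 to 5 and 2858, 3078, 3088, 2923 and 2898 in IAPP. The groups did not overlap, and the means of 2594 ± 87.8 and 2969 ± 107 (SD, n = 5 each) differed 1.14-fold (limma, adjusted p = 0.00573). Gabarapl1 kept this call without any 1 array, but lost it in 2 of 5 fits without 1 replicate number in every group (up to 0.0911). In C4BP arrays it read 2805, 2776, 3004, 2849 and 2686, 0.12 above DMSO on the log2 scale, which did not pass (limma, adjusted p = 0.0761), and in C4BPD it averaged 2683 ± 93.9. Its interaction estimate was -0.12 with a 95% interval of -0.24 to -0.01 and did not pass (limma, adjusted p = 0.9996). Gabarap, the family's founding member, averaged 7198 ± 292 in DMSO, 7287 ± 413 in IAPP, 7224 ± 297 in C4BPD and 7302 ± 436 in C4BP. Its difference from DMSO in IAPP was 0.02, with an interval of -0.08 to 0.12. Map1lc3a, of the LC3 family, averaged 639.5 ± 34.2, 669 ± 37.9, 664.5 ± 48.1 and 682 ± 69.7 in the same order, and its interval in IAPP vs DMSO was -0.07 to 0.20.

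Among cargo receptors, Sqstm1 and Optn were measured. Sqstm1, or p62, links ubiquitinated cargo to ATG8 and is itself degraded by autophagy. It read 1474, 1525, 1635, 1519 and 1565 in DMSO arrays 1 to 5, and 1783, 1589, 1776, 1878 and 1753 in C4BP. C4BP array 2 fell inside the DMSO range and the other 4 lay above it. The mean rose from 1544 ± 60.4 to 1756 ± 105 (SD, n = 5 each), or 1.14-fold (limma, adjusted p = 0.0311). The call was lost with centred arrays or the compared groups alone (adjusted p up to 0.0761) and without DMSO 1, 2, 4 or 5 or C4BP 1, 3, 4 or 5 (0.0533 to 0.0936). In IAPP, Sqstm1 averaged 1675 ± 77.6 and stood at 0.12 above DMSO, and in C4BPD it averaged 1631 ± 98.4 and stood at 0.08. Neither passed (limma, adjusted p = 0.316 and 0.587). Optn, optineurin, a receptor for damaged mitochondria and bacteria, averaged 612 ± 29.4 in DMSO and 677 ± 31.3 in IAPP. Those groups did not overlap, but the difference of 0.15 did not pass (limma, adjusted p = 0.156).

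The transcripts of the lysosomal transcription factors did not pass in any comparison. Tfeb averaged 422 ± 19 in DMSO, 406.5 ± 10.2 in IAPP, 414 ± 35.2 in C4BPD and 413 ± 20.5 in C4BP (SD, n = 5 each). Tfe3 averaged 933 ± 46.5, 982 ± 45.4, 965 ± 76.7 and 981 ± 110 in the same order. The 95% intervals for IAPP vs DMSO were -0.16 to 0.05 for Tfeb and -0.07 to 0.21 for Tfe3 on the log2 scale. TFEB and TFE3 are controlled largely by phosphorylation and entry into the nucleus, which arrays do not measure.

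Lysosomal proteases divided into 1 that rose and 3 that did not pass. Ctsl, cathepsin L, a cysteine protease, read 2202, 2082, 2199.6, 2092 and 2146 in DMSO arrays 1 to 5, and 2389.9, 2508, 2419, 2415 and 2404 in IAPP. In C4BP it read 2263, 2366, 2502, 2399 and 2367, so that every array of both these groups lay above every DMSO array. In C4BPD it read 2366, 2132, 2293, 2154 and 2171, overlapping DMSO. The DMSO mean of 2144 ± 56.8 rose 1.13-fold, to 2427 ± 46.5, with IAPP (SD, n = 5 each) (limma, adjusted p = 0.00736). It was 2379 ± 85.6 in C4BP, 1.11-fold over DMSO (limma, adjusted p = 0.0171), a call lost without DMSO 2 or C4BP 3 (0.0505 to 0.0522) and with centred arrays or the compared groups alone (adjusted p up to 0.0766). Ctsb, cathepsin B, averaged 4710 ± 148 in DMSO, 4692 ± 145 in IAPP, 4676 ± 84.2 in C4BPD and 4755 ± 129 in C4BP. Ctsd, the aspartic protease cathepsin D, averaged 5489 ± 364, 5596 ± 222, 5572 ± 203 and 5907 ± 265 in the same order. Ctsa, a serine carboxypeptidase that also stabilises lysosomal glycosidases, averaged 4525 ± 81.2, 4588 ± 117, 4549 ± 131 and 4665 ± 120. For Ctsb the 95% interval of IAPP minus DMSO was -0.08 to 0.07 on the log2 scale.

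Of the lysosomal membrane proteins, Mcoln1 rose when both agents were likely present. Mcoln1 encodes mucolipin 1, the channel that releases calcium from lysosomes. It read 3199.9, 3185, 3011, 2948 and 2942 in DMSO arrays 1 to 5, and 3562, 3632, 3357, 3521 and 3678 in C4BP. IAPP arrays read 3211, 3237, 3251, 3293 and 3377, and C4BPD arrays 3559.6, 3276, 3264, 3224 and 3262. All 15 arrays of these groups lay above all 5 DMSO arrays. The mean was 3057 ± 126 in DMSO and 3550 ± 124 in C4BP (SD, n = 5 each), a 1.16-fold rise (limma, adjusted p = 0.00101). The single agents stood at 0.10 (IAPP) and 0.12 (C4BPD) above DMSO on the log2 scale and did not pass (limma, adjusted p = 0.235 and 0.147), and the interaction was 0.00 with an interval of -0.12 to 0.11. Lamp2, a structural glycoprotein and receptor of chaperone-mediated autophagy, averaged 6225 ± 101 in DMSO, 6714 ± 176 in IAPP and 6733 ± 321 in C4BP. IAPP and C4BP arrays did not overlap DMSO arrays, but the differences of 0.11 in each did not pass (limma, adjusted p = 0.239 and 0.15). Lamp1, its relative, ranged from 4198 to 4422 in group means.

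V-ATPase subunits, which build the pump that acidifies the lysosome, did not pass in any comparison. Atp6v0d1 group means ran from 8117 to 8406, and those of Atp6v1h from 1929 to 2077.

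Both lysosomal lipid exporters rose with IAPP, with and without C4b-binding protein in the likely reading of the titles. NPC2 picks up cholesterol in the lysosomal lumen and hands it to NPC1, which passes it through the membrane. Npc1 read 1426, 1402, 1172, 1390.1 and 1402 in DMSO arrays 1 to 5, and 1637, 1692, 1664, 1660.2 and 1747 in IAPP. In C4BPD it read 1319.6, 1348, 1374, 1320.4 and 1405, and in C4BP 1602, 1615, 1534, 1671 and 1587. The 10 arrays titled IAPP or C4BP all lay above the 10 others, with no overlap. The DMSO mean of 1359 ± 105 rose 1.24-fold, to 1680 ± 42.2, with IAPP (SD, n = 5 each) (limma, adjusted p = 0.00035), and stood at 1602 ± 49.4 in C4BP, 1.18-fold over DMSO (0.0021) and 1.18-fold over the 1353 ± 36.5 of C4BPD (0.00441). C4BPD minus DMSO was 0.00, with an interval of -0.10 to 0.09.

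Npc2 read 1931, 1820.5, 1806, 1962 and 1718 in DMSO arrays 1 to 5, and 2334, 2054, 2121, 2061 and 1993 in IAPP. In C4BPD it read 1999.5, 1743, 1773, 1835 and 1779.8, and in C4BP 2217, 2166, 2000.0, 2070.3 and 2040.3. IAPP and C4BP arrays lay above every DMSO array. C4BPD 1 lay just under the lowest C4BP array and above IAPP 5, so the C4BPD and IAPP arrays overlapped. The DMSO mean of 1848 ± 99 rose 1.14-fold, to 2113 ± 132, with IAPP (SD, n = 5 each) (limma, adjusted p = 0.0372). C4BP averaged 2099 ± 89.9, also 1.14-fold over DMSO (limma, adjusted p = 0.0321) and 1.15-fold over the 1826 ± 102 of C4BPD (0.0352). These 3 calls for Npc2 were lost with centred arrays or the compared groups alone (adjusted p up to 0.162). The first was also lost without DMSO 2, 3 or 5 or IAPP 1, 2, 3 or 4 (0.0577 to 0.114), the second without DMSO 2, 3 or 5 or C4BP 1, 2 or 4 (0.0535 to 0.101), and the third without C4BPD 2, 3, 4 or 5 or C4BP 1, 2, 4 or 5 (0.0525 to 0.0966). The calls for Npc1 held in all of these fits. Its call in C4BP vs C4BPD was lost when replicate number 2 or 4 was left out of every group (limma, adjusted p up to 0.0804).

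The other lumenal proteins did not pass in any comparison. Psap, the precursor of the saposins that help degrade sphingolipids, had group means of 9046 to 9320. Hexa, a subunit of beta-hexosaminidase, ranged from 2173 to 2264, and Grn, progranulin, from 5842 to 6007. In IAPP vs DMSO, 2 of 2 lipid exporters were called, beside 3.38% of all genes, though the Npc2 call was lost without some single arrays. The counts were 1 of 4 proteases, 0 of 3 membrane proteins, 0 of 2 pump subunits and 0 of 3 other lumenal proteins. They were 1 of 15 autophagosome genes, 0 of 2 cargo receptors and 0 of 2 transcription factors. Each role holds few genes, and the difference between roles was not tested.

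Whether IAPP moves these genes alike with and without C4b-binding protein can be read from IAPP minus DMSO and C4BP minus C4BPD, which share no arrays. Over the 33 members the pair of differences had a Pearson correlation of 0.77 (Spearman 0.81), beside 0.53 over all 18166 genes, and 0.87 without Wipi1. These are correlations across genes that share arrays within each difference, given as a description. The 18166 genes include dim ones, while all 33 members lay above the median of all probe sets. The correlation over genes of like brightness is not given here. The remaining pair, C4BPD minus DMSO and C4BP minus IAPP, correlated at 0.23 over the members (Spearman 0.29) and at 0.43 over all genes, and at 0.45 over the members without Wipi1. Wipi1 stood apart in both, at -0.13 and -0.50 in the first pair and 0.37 and 0.00 in the second.

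**Figure D3:**
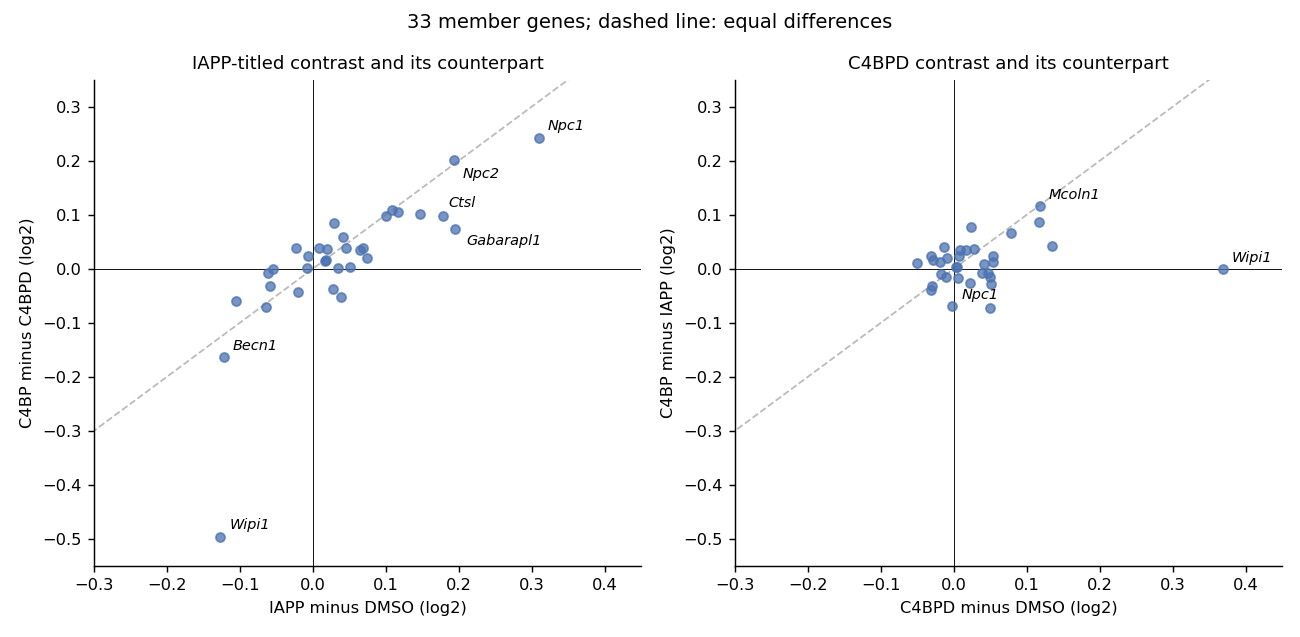
Log2 differences of the 33 members in pairs of contrasts that share no arrays, IAPP minus DMSO against C4BP minus C4BPD (left) and C4BPD minus DMSO against C4BP minus IAPP (right). Each point is a gene and the dashed line marks equal differences. Npc1 and Npc2 lie near the line at the upper right of the left panel, and Wipi1 lies far from it in both panels.

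The rest of the pathway was examined through 11 further lists of 154 genes, 135 of them measured, grouped by function. In IAPP vs DMSO, 12 of the 135 were higher and 0 lower (8.89%, beside 3.38% of all genes). In C4BPD vs DMSO, 1 was higher and 0 lower (0.741%, beside 1.93%), and in C4BP vs DMSO, 16 were higher and 2 lower (13.3%, beside 5.96%). In C4BP vs C4BPD, 7 were higher and 1 lower (5.93%, beside 2.37%), and limma called 0 in C4BP vs IAPP and 0 in the interaction. Upward calls in IAPP vs DMSO fell in 7 of the lists: nutrient sensing, other membrane proteins, cargo receptors, proteases, glycosidases and lipases, mannose 6-phosphate sorting and the pump.

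Of nutrient sensing genes at the lysosome, where mTORC1 is activated, 4 of 18 measured were called in IAPP vs DMSO. That is 22.2%, beside 3.38% of all genes and 18.2% of the other cargo receptors. It was the highest count among lists that differ in size. Flcn, folliculin, which with Fnip1 acts on the RagC and RagD GTPases, had a DMSO mean of 1122 ± 36 (SD, n = 5). It rose 1.27-fold, to 1426 ± 53.4, with IAPP (limma, adjusted p = 4.30e-05) and 1.35-fold, to 1512 ± 89.4, in C4BP arrays (1.37e-06). Rragd, encoding RagD, rose 1.23-fold in IAPP and 1.23-fold in C4BP over DMSO. Flcn was 1.28-fold and Rragd 1.19-fold higher in C4BP than in C4BPD. Fnip1 rose by 0.20 in IAPP and 0.25 in C4BP on the log2 scale, and Tsc1, which restrains mTORC1, by 0.14 in both. Fnip1's call in IAPP was lost without IAPP 4 (limma, adjusted p = 0.0524), with centred arrays (0.0535) and with only DMSO and IAPP arrays fitted (0.0547). For Tsc1, the call in IAPP was lost without DMSO 3 or 4 or IAPP 3, 4 or 5 (up to 0.0915) and the call in C4BP without DMSO 3 or 4 or C4BP 3 (up to 0.0661).

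Of other membrane proteins, Ctns, the lysosomal cystine exporter, was the pathway gene called in C4BPD vs DMSO. It rose from 812 ± 48.5 in DMSO to 949 ± 39.3 in C4BPD, 1014 ± 32.7 in IAPP and 1064 ± 39.1 in C4BP (SD, n = 5 each), or 1.17-fold, 1.25-fold and 1.31-fold (limma, adjusted p = 0.00726, 0.000146 and 6.86e-06). Cln3, a lysosomal membrane protein lost in a neuronal storage disease, rose by 0.18 in IAPP and 0.17 in C4BP over DMSO. In limma, the first of these Cln3 calls was lost with centred arrays (adjusted p = 0.05) and the second with only DMSO and C4BP arrays fitted (0.0839). The chloride exchanger Clcn7 and the membrane protein Tmem192 rose by 0.18 and 0.16 in C4BP vs DMSO. The Ctns call in C4BPD was lost with only DMSO and C4BPD arrays fitted (limma, adjusted p = 0.0593). The Clcn7 call was lost without DMSO 2, 3, 4 or 5 or C4BP 1, 2, 3 or 5 (up to 0.104), and the Tmem192 call without DMSO 2, 4 or 5 or C4BP 1, 2, 4 or 5 (up to 0.147).

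Among hydrolases, Scpep1, a serine carboxypeptidase, rose by 0.20 in IAPP and 0.36 in C4BP over DMSO, from 1131 ± 62.9 to 1298 ± 30.6 and 1447 ± 57.2 (SD, n = 5 each). Lipa, the acid lipase that frees cholesterol from its esters for NPC2, rose by 0.20 in IAPP vs DMSO and by 0.21 in C4BP vs C4BPD. Smpd1, acid sphingomyelinase, and Gm2a, the GM2 activator, rose by 0.14 and 0.18 in C4BP vs DMSO. Gnptab, which makes the mannose 6-phosphate tag that sorts hydrolases, rose by 0.15 in IAPP and 0.12 in C4BP over DMSO. Of 15 further pump subunits, Atp6v0a1 rose by 0.12 in each and Atp6v1d by 0.21 in C4BP. Most of these smaller steps depended on single arrays in limma. The Lipa call in IAPP was lost without DMSO 2, 3 or 5 or any IAPP array (adjusted p up to 0.113), and in C4BP vs C4BPD without C4BPD 1, 2, 4 or 5 or C4BP 1, 2, 3 or 4 (up to 0.104). Against DMSO in C4BP, Smpd1 was lost without DMSO 2 or 5 or C4BP 1, 4 or 5 (up to 0.0946), and Gm2a without DMSO 3, 4 or 5 or C4BP 1, 2, 4 or 5 (up to 0.109). In the same comparison, Gnptab was lost without DMSO 2 or 3 or C4BP 1, 2, 3 or 5 (up to 0.0763), and Atp6v1d without DMSO 5 or C4BP 1 or 4 (up to 0.0733). Atp6v0a1 was lost in IAPP without DMSO 2, 3 or 4 or IAPP 2, 3 or 5 (up to 0.0624). With centred arrays or only the compared groups, the Atp6v0a1 call in C4BP and the Gnptab call in IAPP were lost too (up to 0.129 and 0.0654). Scpep1 kept both calls in every fit without 1 array. Its call in IAPP was lost in 3 of 5 fits without 1 replicate number in every group (limma, adjusted p up to 0.111).

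Among further autophagosome genes, pairwise calls fell in the receptor and fusion lists. The F test called 1 of 15 initiation genes, 3 of 11 other receptors and 0 of 12 fusion genes, beside 7.85% of all genes. Of 15 measured genes of initiation and the lipid kinase complex, and of 3 further conjugation genes, limma called 0 in any pairwise comparison, and at most 2 and 1 of them had an unadjusted p under 0.05 in a comparison with DMSO or with C4BPD. Of 11 other cargo receptors, 2 (18.2%) were called in IAPP vs DMSO, beside 3.38% of all genes. Tex264, a receptor for the endoplasmic reticulum, rose by 0.17 in IAPP and 0.18 in C4BP over DMSO, and Stbd1, a glycogen receptor, rose by 0.31 in IAPP, from 234 ± 9.09 to 289 ± 9.48 (SD, n = 5 each). Bnip3l, a mitophagy receptor, fell by 0.16 in C4BP vs C4BPD. Of 12 fusion genes, Tecpr1, a tether between autophagosome and lysosome, fell by 0.22 in C4BP vs DMSO. In the list of transcription factors, Mitf, a relative of TFEB, fell by 0.27 and Foxo3 rose by 0.25 in C4BP vs DMSO. In limma, the Tecpr1 call was lost without DMSO 1 or 2 or C4BP 4 (adjusted p up to 0.0551), and the Bnip3l call without C4BPD 1, 3, 4 or 5 or C4BP 1, 2 or 5 (up to 0.109). Tex264 was lost in IAPP without DMSO 1, 3 or 5 or IAPP 1, 2, 3 or 5 (up to 0.0955), while Stbd1, Mitf and Foxo3 kept their calls in every fit without 1 array. Of 5 fits without 1 replicate number in every group, Mitf was lost in 3, Foxo3 in 2 and Stbd1 in 1. Adjusted p in these limma fits was up to 0.0798, 0.0632 and 0.0538.

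**Figure D4:**
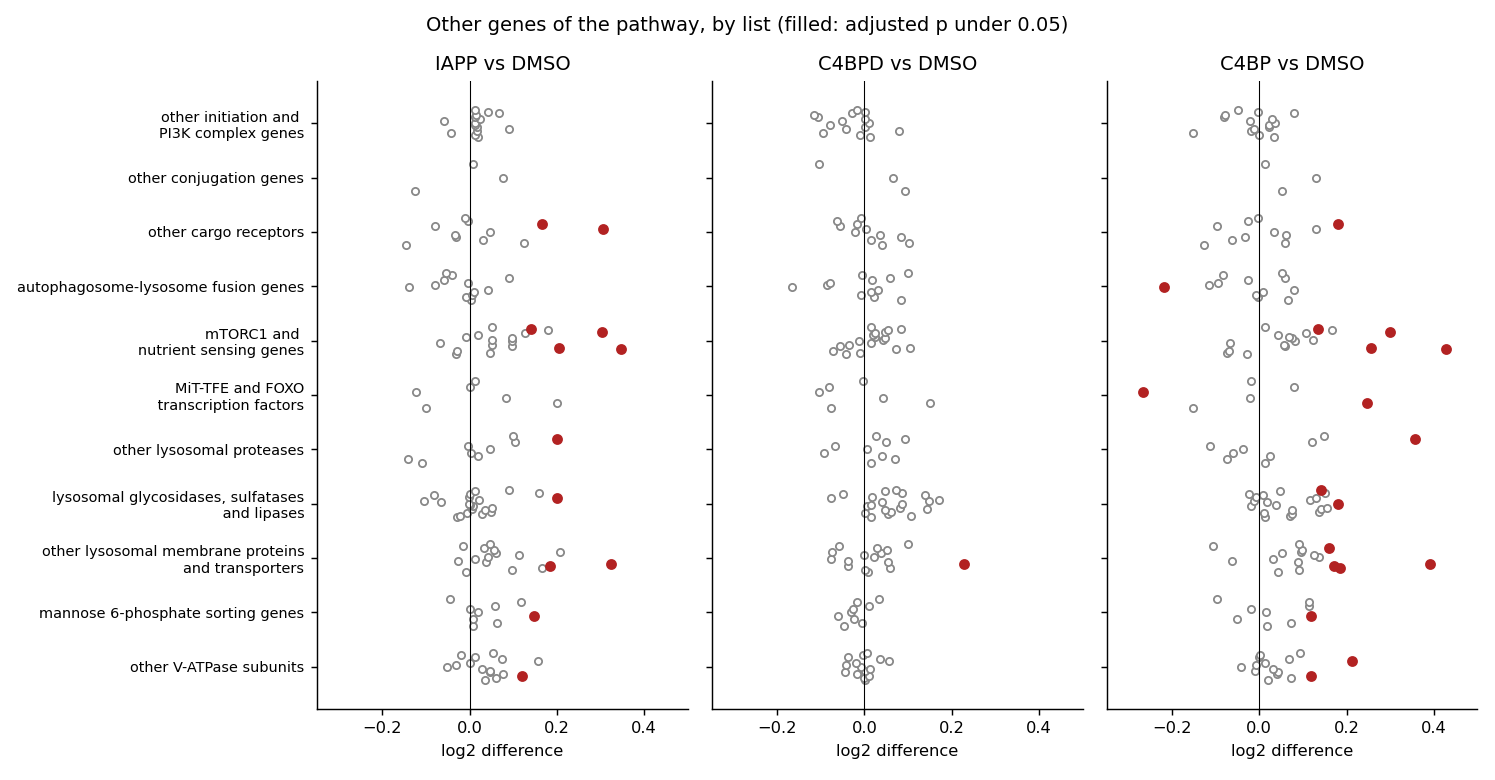
Log2 difference from DMSO (x axis) of the 135 measured genes of 11 further pathway lists (y axis) in arrays titled IAPP, C4BPD and C4BP. Each point is a gene, and filled red points have an adjusted p under 0.05. Filled points number 12 in IAPP, 1 in C4BPD and 18 in C4BP, and the nutrient sensing list holds 4 of them in IAPP and 4 in C4BP.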

How the data were processed

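The values are probe set intensities on a linear scale, normalized and summarized by the authors and deposited as 1 table. The submitters' processing notes name Affymetrix Expression Console. Its version, algorithm and annotation were not given in the sources used here. Intensities were turned to log2 values. Of 36685 probe sets, 18511 carried 1 gene symbol, and the brightest per gene was kept, which left 18166 genes. Groups came from the titles, with 5 arrays each. limma 3.58.1 in R 4.3.3 was fitted to all 20 arrays (lmFit and eBayes, 16 residual degrees of freedom), with Benjamini-Hochberg adjustment over all genes and a threshold of 0.05. The fit was tested on simulated data. Figures were drawn with matplotlib 3.10.9 under Python 3.11.15.

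Members called in any comparison are given for every array, the ATG8 genes, Sqstm1, Tfeb and the cathepsins by mean and SD regardless, and other members by range. From each pathway list, up to 3 called genes per direction and comparison are named, and Tsc1 and Tmem192 were added after their values were seen. The members and all lists were chosen with earlier results of these data known. The number of arrays limits the precision. Alternatives covered the array scaling, the variance prior, array weights, dim genes, the arrays fitted, the replicate number and the treatment field.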

Additional observations from a re-analysis of the deposited data

Results flagged for a closer look

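Of 132 groups of 5 arrays, each 1 member in 1 title group, 16 held an array whose gap to the nearest other array took up more than 0.71 of the group's range. Chance flags about 1 in 20 such groups. C4BPD array 1 accounted for 6 of the 16. It read 1760 for Ulk2, 1680 for Atg9a, 4780 for Ctsa and 3560 for Mcoln1, above the other 4 C4BPD arrays, and 1460 for Sqstm1 and 5620 for Lamp2, below them. C4BPD array 5 read 4210 for Lamp1, below the others.

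Among DMSO arrays, array 5 was high for Tfeb at 455 and low for Lamp2 at 6050, array 3 was low for Npc1 at 1170, and array 1 was high for Grn at 6500. Among IAPP arrays, array 1 was high for Ctsd at 5990, array 2 for Ctsl at 2510, and array 5 for Atp6v0d1 at 8510. C4BP array 2 was low for Gabarap at 6560 and for Psap at 8590. The Npc1 and Ctsl calls in IAPP vs DMSO held without any 1 array. Without 1 replicate number in every group, the Npc1 call held and the Ctsl call was lost in 3 of 5 fits (limma, adjusted p up to 0.103).

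The change in Wipi1 with IAPP differed according to whether C4b-binding protein was likely present, by -0.369 on the log2 scale (limma interaction, adjusted p = 0.0229). For Wipi1 this call was lost with centred arrays (0.0776), in 9 of 20 fits without 1 array, and in all 5 fits without 1 replicate number in every group (up to 0.294).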

How the results depend on the processing

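Of 54 gene calls, 22 were lost without some single array and 37 without some replicate number in every group. With arrays centred on their median 25 were lost, and all 54 when groups were not taken from the titles. With the treatment field in place of the title, limma called 0 members in all 5 pairwise comparisons, the interaction and the F test, and 42 of 54 gene calls changed sign, with differences on the log2 scale that did not pass. In IAPP vs DMSO, the values were -0.004 for Atp6v0a1, -0.085 for Cln3, -0.083 for Ctns, -0.125 for Flcn, -0.004 for Fnip1, -0.037 for Gnptab, -0.011 for Npc2, -0.054 for Rragd, -0.069 for Scpep1, -0.034 for Stbd1 and -0.068 for Tex264. In C4BPD vs DMSO, the value was -0.07 for Ctns. In C4BP vs DMSO, the values were -0.046 for Atg7, -0.016 for Atp6v0a1, -0.105 for Atp6v1d, -0.067 for Clcn7, -0.035 for Cln3, -0.16 for Ctns, -0.028 for Ctsl, -0.106 for Flcn, -0.078 for Fnip1, -0.019 for Foxo3, -0.09 for Gm2a, -0.005 for Gnptab, -0.137 for Mcoln1, 0.033 for Mitf, -0.016 for Npc2, -0.07 for Rragd, -0.149 for Scpep1, -0.055 for Smpd1, -0.084 for Sqstm1, 0.063 for Tecpr1, -0.016 for Tex264, -0.14 for Tmem192 and -0.016 for Tsc1. In C4BP vs C4BPD, the values were -0.022 for Cln3, -0.051 for Flcn, -0.016 for Gnptab, -0.045 for Lipa, -0.048 for Npc1, -0.04 for Rragd and -0.117 for Scpep1.

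With arrays centred on their median, members called in C4BP vs DMSO went from 6 to 2 and in the interaction from 1 to 0, and with only the compared groups fitted the first was again 2. With dim genes left out, the F test called 10 members in place of 6. Leaving out 1 array or 1 replicate number in every group gave 1 to 5 members in IAPP vs DMSO, 1 to 1 in C4BPD vs DMSO, 2 to 5 in C4BP vs DMSO, 0 to 0 in C4BP vs IAPP, 1 to 3 in C4BP vs C4BPD, 0 to 1 in the interaction (0 to 0 without a replicate number) and 3 to 7 in the F test. The fits without a number in every group were added after the data had been seen. Without 1 array, 131 of 550 gene calls fell short of the threshold, and without 1 replicate number in every group 130 of 270 did. Under the scaling, model and filter settings, 59 of 430 fell short. In each of these sets 0 reversed. The cause of these changes was not tested.

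The replicate number was tried as a block. Arrays were counted as paired only where all 5 same-numbered pairs correlated above 0.1. This was so for 2, 3, 3, 4 and 3 of 5 pairs in IAPP vs DMSO, C4BPD vs DMSO, C4BP vs DMSO, C4BP vs IAPP and C4BP vs C4BPD. Each array correlated best with its own number in 5, 6, 5, 8 and 3 of 10 cases. With this block, limma called 5, 2, 9, 0 and 3 members in these comparisons, 1 in the interaction and 9 in the F test. The block added Wipi1 as a lower call in IAPP vs DMSO and in C4BP vs DMSO (limma, adjusted p = 0.0472 and 0.0323), Ulk2 as a higher call in C4BPD vs DMSO (0.0447), and Gabarapl1 and Ctsd as higher calls in C4BP vs DMSO (0.0138 and 0.0249). Over all genes the block gave 1133, 797, 1884, 352 and 958 calls in place of 614, 351, 1082, 110 and 431, 18 in place of 9 for the interaction and 2604 in place of 1426 for the F test.

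Over all genes, fitting only the compared groups gave 223 calls in C4BP vs C4BPD, 663 in C4BP vs DMSO, 33 in C4BP vs IAPP and 208 in C4BPD vs DMSO. Centred arrays gave 70 in C4BP vs IAPP and 221 in C4BPD vs DMSO, array weights gave 644 in C4BPD vs DMSO, and leaving out dim genes gave 221 in C4BP vs IAPP. The interaction had 14 calls with an intensity trend and robust prior, and 14 without dim genes. Leaving out a number in every group took the counts as low as 235, 151, 615, 18 and 200 in the pairwise comparisons, 716 in the F test and 0 in the interaction.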
